A study of Mus musculus with 12 samples.

Results

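Most m6A peaks of mouse spermatogonial stem cells and of the neural stem cell-like cells made from them lay in known genes, and 435 of 118075 did not. These 435 peaks overlapped no RefSeq gene span of any biotype on GRCm38 by even 1 base, on either strand. They came from 6 peak lists, with 113, 64 and 110 such peaks in the spermatogonial stem cell (SSC) libraries and 41, 53 and 54 in the derived cell (iNSC) libraries. Merging those that shared at least 1 base on the same strand gave 258 regions.

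The study immunoprecipitated fragmented RNA with an m6A antibody in 3 SSC and 3 iNSC libraries, and the titles number the replicates 1 to 3. SSCs, germ line stem cells of the testis, were cultured over mitotically inactivated STO fibroblasts in a medium with GDNF. iNSCs were obtained from these cells by 24 h in 1 µM retinoic acid and then a neural medium holding the TGF-β receptor inhibitor SB431542 and bFGF. The series title and type name a DNA methylation assay, but the protocols describe RNA immunoprecipitation, and the 6 inputs were left aside. Groups follow the titles and source names, since a further label field names the other cell type in 12 of 12 samples.

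N6-methyladenosine is written onto nascent transcripts by the METTL3-METTL14 complex, mostly at a short motif with the core GGAC, and lies chiefly near stop codons, in the last exons and in long internal exons. Reader proteins of the YTH family bind it and influence how long a transcript lives and how it is translated. A peak outside every gene span still needs RNA from that place, such as a transcript that runs past its annotated end, one that starts upstream, an antisense or unannotated RNA, or a repeat. A peak requires both RNA and its methylation, and these cannot be told apart here.

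Sequence could be read for the 20 regions that reached into the stretch just before a RefSeq gene start, taken from promoter windows of 250 bases before to 50 bases after each start (RefSeq, GRCm38.p6). Of these 20 regions, 15 lay on the strand of the gene and 5 on the opposite strand, and 9 held GGAC on the peak's strand. Over all promoter windows, the share with GGAC at the same place ran from 1.75% (Vstm2a, 8 bases) to 57.11% (Gm33272, 244 bases). The count of 9 was not tested against these shares and is a description. The 6 stretches below are shown because they cover the range: present in 5 lists (Ncor1, Borcs6, Sdhaf1), in SSC lists alone (Irx3), in iNSC lists alone (Twist2), and in 1 list (Gm33272). Each is written 5′ to 3′ on the strand of the peak, covers the part of the region inside the window, and has GGAC in capitals. Only this strand was searched, and adjoining matches were counted separately.
Ncor1, chr11:62457436-62457582 (-): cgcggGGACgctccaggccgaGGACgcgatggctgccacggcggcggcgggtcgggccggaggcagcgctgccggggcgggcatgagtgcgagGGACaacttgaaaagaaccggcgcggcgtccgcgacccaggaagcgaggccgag
Borcs6, chr11:69059525-69059699 (-): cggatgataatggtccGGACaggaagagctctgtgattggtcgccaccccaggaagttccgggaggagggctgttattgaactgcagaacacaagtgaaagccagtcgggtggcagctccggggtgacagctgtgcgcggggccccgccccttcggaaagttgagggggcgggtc
Sdhaf1, chr7:30322505-30322625 (+): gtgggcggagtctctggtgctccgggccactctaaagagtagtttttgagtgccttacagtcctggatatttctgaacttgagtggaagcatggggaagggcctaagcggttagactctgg
Irx3, chr8:91801664-91801904 (-): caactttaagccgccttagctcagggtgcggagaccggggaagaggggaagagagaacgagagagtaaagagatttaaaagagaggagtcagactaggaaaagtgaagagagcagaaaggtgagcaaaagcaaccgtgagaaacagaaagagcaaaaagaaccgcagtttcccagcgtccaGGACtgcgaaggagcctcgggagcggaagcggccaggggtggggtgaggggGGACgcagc
Twist2, chr1:91801211-91801300 (-): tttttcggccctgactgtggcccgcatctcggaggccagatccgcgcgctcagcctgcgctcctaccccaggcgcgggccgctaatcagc
Gm33272, chrY:90793437-90793680 (+): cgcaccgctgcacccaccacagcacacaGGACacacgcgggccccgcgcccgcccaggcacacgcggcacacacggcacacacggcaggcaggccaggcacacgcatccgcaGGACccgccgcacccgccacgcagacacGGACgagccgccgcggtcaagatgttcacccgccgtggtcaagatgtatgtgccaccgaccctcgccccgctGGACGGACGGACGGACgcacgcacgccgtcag

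GGAC occurred 3 times in the Ncor1 stretch of 147 bases, once in the 175 bases at Borcs6, and not in the 121 bases at Sdhaf1. The 241 bases at Irx3 held 2 matches, the 90 bases at Twist2 held 0, and the 244 bases at Gm33272 held 7. Among all 32851 promoter windows, the stretch at the same place held at least 1 match in 40.39% (Ncor1), 47.37% (Borcs6), 35.6% (Sdhaf1), 56.65% (Irx3), 27.72% (Twist2) and 57.11% (Gm33272). A match is a run of letters and not a mapped methylation site, since peaks are far wider than 1 base.

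Ncor1 encodes a nuclear receptor corepressor that recruits histone deacetylases. Its region began 22 bases upstream of the gene on the gene's own strand and was absent from SSC replicate 1. It ranked at the 22.4th and 52.1st percentile of the score in SSC replicates 2 and 3 and at 18.1, 51.9 and 37.6 in the iNSC lists. Percentiles here are ranks of the authors' peak score within a library's own list, where 100 is the best. The region was 276 to 371 bases wide in these 5 lists, so the calls were alike in place, and Ncor1 itself carried 9 to 18 peaks in every list.

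Irx3, a homeobox transcription factor gene, had a region 10 bases upstream of its start in the 3 SSC lists and in no iNSC list. Its percentiles were 71.1, 77.9 and 69.2. In SSC replicates 1 and 2 the peak over it reached into the gene, so only the SSC replicate 3 entry of 370 bases counted as outside. Peaks that touched Irx3 numbered 3, 2 and 2 in SSC lists and 0 in each iNSC list. In SSC replicates 1 and 2 the peak over the region is among those counted, so only SSC replicate 3 held region and gene as separate entries.

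At Borcs6, a subunit gene of a complex that positions lysosomes, and at Sdhaf1, an assembly factor gene of succinate dehydrogenase, the region lay on the opposite strand to the gene. The Borcs6 region had percentiles of 87.2 and 31.1 in SSC replicates 2 and 3 and of 73.4, 68.2 and 57.8 in iNSC lists. The Sdhaf1 region had 13.0 and 3.75 in the same SSC lists and 67.8, 75.5 and 77.0 in iNSC lists, so its iNSC ranks were all above its SSC ranks. In several of these lists the peak over the region reached on into a gene. Twist2, a transcription factor gene of mesenchyme, had an opposite-strand region of 1733 bases in iNSC replicates 2 and 3, at percentiles of 19.1 and 12.5.

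More regions lay past gene ends than before gene starts. Of the 258 regions, 105 (40.7%) lay within 5000 bases past the 3′ end of a gene on their own strand, and 34 (13.2%) lay within 5000 bases before a start without being past an end. A further 22 had an opposite-strand gene but no same-strand gene within 5000 bases, 20 had only a gene whose strand was not known, and 77 (29.8%) were farther than 5000 bases from any gene. Across all distances, 149 regions were nearer to a same-strand 3′ end and 109 to a same-strand start. The 109 include 24 regions at the start of chromosome 9 with no known same-strand gene behind them. These could only count as nearer to a start. The median distance to the nearest gene of either strand was 2003.5 bases, the smallest was 5 and the largest 61863. The nearest gene was protein-coding for 174 regions, a lncRNA for 30 and a miRNA for 27, and Mir101c alone was nearest to 24.

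**Figure D1:**
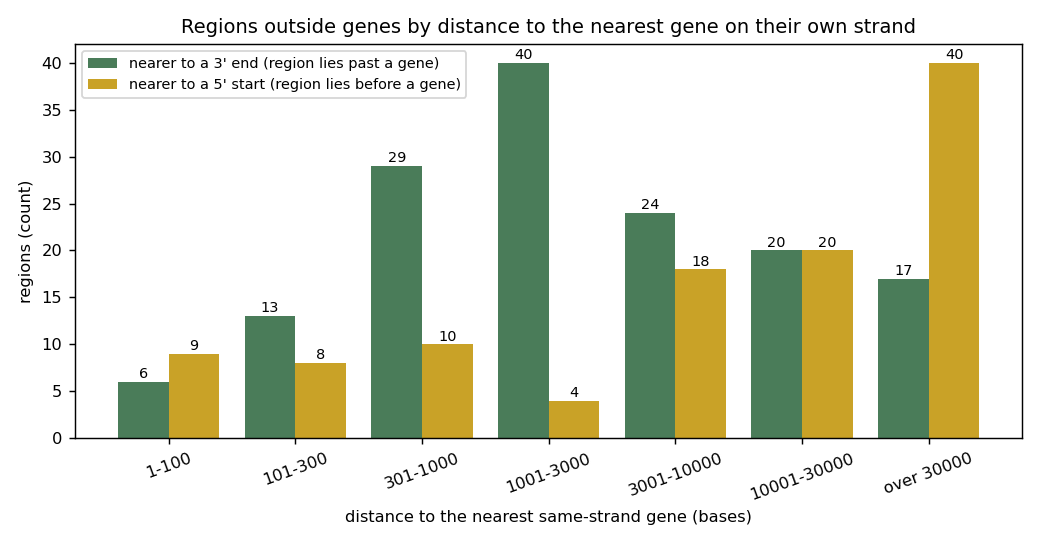
Number of regions (y axis) by distance in bases to the nearest gene on their own strand (x axis, unequal bins); green bars are regions nearer to a 3′ end, yellow bars regions nearer to a 5′ start. From 1001 to 3000 bases there were 40 regions past an end and 4 before a start. Beyond 30000 bases the counts were 17 and 40. These last 40 include 24 regions at the start of chromosome 9 with no known same-strand gene behind them.

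The rule turns on a single base of overlap, so peaks close to it were counted. Within 50 bases of a gene lay 15 member peaks, with a median percentile of 41.0 and a median width of 345 bases. On the other side, 60 peaks overlapped a gene by 3 to 50 bases, with a median percentile of 47.5 and a median width of 94.5 bases. Of the 258 regions, 23 were overlapped in another list by a peak that reached into a gene.

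The 105 regions past a gene end belonged to 93 genes, at a median of 1351 bases past the end. Where a list had an entry of its own outside genes, the gene itself carried a peak in 102 of 148 cases (68.9%), and where a list had no peak over the region, in 224 of 439 cases (51.0%). A further 43 cases, in which the region was covered only by a peak that reached into a gene, were left out of this count. Of all protein-coding genes, 31.7% to 47.3% had a peak in a given list. Several cases share a gene or a list, so these shares are a description. Most of the peaks were separate from the genic ones, since 37 of 435 members (8.51%) had a peak that reached into a gene within 1000 bases in the same list.

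Trim56, which encodes a ubiquitin ligase of antiviral signalling, had 3 regions past its end, at 453, 1659 and 4957 bases. The nearest one, chr5:137110039-137110833, was overlapped in all 6 lists, at percentiles of 88.0, 59.9 and 78.2 in SSCs and 92.3, 78.4 and 91.8 in iNSCs. It was an entry of its own, 795 bases wide, in SSC replicate 1 alone, and elsewhere was covered by a longer peak that reached into the gene. The second region was a separate entry in SSC replicates 1 and 3 (percentiles 72.4 and 75.3) and was covered by the long genic peak in every iNSC list. The same stretch past Trim56 was thus listed as separate pieces in some lists and as 1 peak in others.

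Taf12, a subunit gene of the general transcription factor TFIID, had a region 162 bases past its end in all 6 lists, chr4:132293491-132294746. Its percentiles were 81.1, 48.4 and 44.2 in SSC lists and 47.1, 55.3 and 55.1 in iNSC lists, and the groups overlapped. Entries outside the gene were 566 and 368 bases wide in SSC replicates 2 and 3 and 832, 786 and 1090 bases wide in iNSC lists. Naif1, Spring1, Fitm2 and Mxd4, picked as examples after their values were seen from the past-end regions in 4 or 5 lists, had a single outside entry each within 5 to 364 bases of the gene end. In the other lists with a peak there, that peak ran into the gene.

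Ubn2, a ubinuclein gene of the histone chaperone machinery, had the third widest region, 2188 bases, on its own strand 9397 bases past its end and in all 6 lists as entries of their own. Widths were 1619, 1015 and 1008 bases in SSC lists and 1573, 1906 and 2188 in iNSC lists, with 7 entries in all. Percentiles were 87.7, 37.7 and 66.7 against 53.3, 63.4 and 31.1, with no separation of the cell types. Ubn2 itself had 3 to 10 peaks in every list. Fbxl18, an F-box protein gene, had a region of 2212 bases 2632 bases past its end in 5 lists, with percentiles of 46.4 and 61.1 in SSC replicates 1 and 2 and 32.3, 26.3 and 48.4 in iNSCs. The widest region, 2247 bases, lay 14705 bases past Gm14391, a predicted protein-coding gene, in SSC replicates 1 and 3 and all iNSC lists.

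Few regions were found in every list of a cell type. A region counted as SSC-only if a peak of each of the 3 SSC libraries overlapped it and none from iNSCs did, and as iNSC-only in the opposite case. There were 4 SSC-only regions (1.55% of 258), whereas 5.59% of all 48292 merged regions of the series were SSC-only. There were 12 iNSC-only regions (4.65%), against 3.42% of all regions, and 8 regions in all lists (3.10%), against 10.1% of all. A single list held 61.6% of regions outside genes and 46.5% of all regions. Regions with member peaks in 1 list numbered 67, 24 and 66 for the SSC libraries and 3, 8 and 9 for the iNSC libraries, so most were single calls from SSC replicates 1 and 3, which have the longest lists. Without SSC replicates 1, 2 and 3 the SSC-only count was 7, 16 and 11, where 2 SSC lists instead of 3 are enough for the call.

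**Figure D2:**
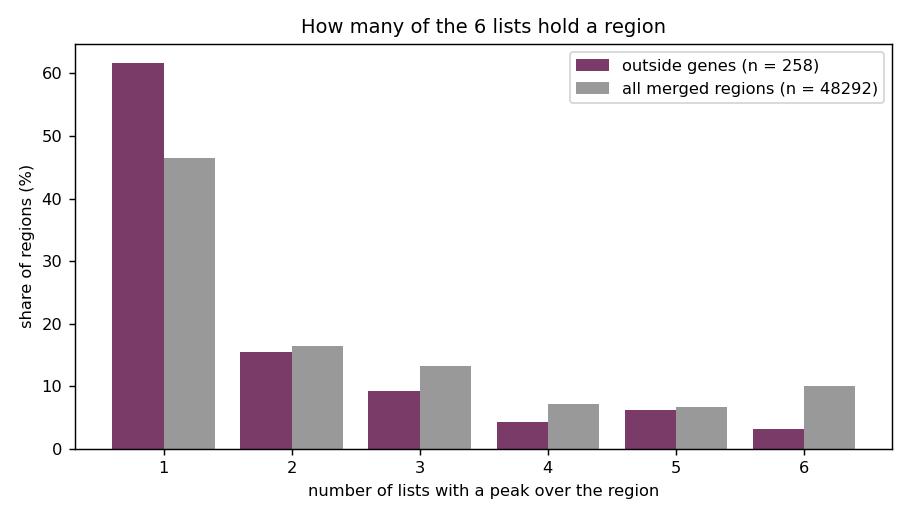
Share of regions in percent (y axis) by the number of lists with a peak over the region (x axis), for the 258 regions outside genes and for all 48292 merged regions. Regions outside genes were in 1 list for 61.6% and in 6 lists for 3.10%, against 46.5% and 10.1% of all regions.

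The SSC-only region with the best ranks, chr7:110059526-110060041, lay 1648 bases upstream of Zfp143, a zinc finger factor gene, on the opposite strand. Its percentiles were 98.1, 96.1 and 83.9 and its widths 511, 508 and 501 bases. Atp2b4, a plasma membrane calcium pump gene, had a region 793 bases past its end (chr1:133701639-133701881) at percentiles of 35.6, 76.3 and 58.2. Atp2b4 itself kept 3 peaks in each iNSC list beside 5, 4 and 7 in SSC lists, so the gene had peaks in the lists that lacked the past-end region. Ntn4, a secreted netrin gene, had a region 411 bases past its end (chr10:93746383-93747102) at 33.9, 28.7 and 47.9, and the gene had 1 peak in each SSC list and 0 in iNSC lists.

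The iNSC-only region with the best ranks, chr1:193280371-193280921, lay 7183 bases from G0s2, an inhibitor gene of triglyceride lipolysis. It had percentiles of 63.8, 77.5 and 80.3 and was 551 bases wide with the same edges in the 3 lists. It lay on the strand opposite to G0s2, which itself had 1 peak in each iNSC list and 0 in each SSC list. Grem1, a secreted BMP antagonist gene, had a region 807 bases past its end (chr2:113746276-113747868) at 58.7, 36.7 and 60.3. The gene carried 1, 1 and 2 peaks in iNSC lists and 0 in SSC lists, and the region was an entry of its own only in iNSC replicate 2, with a width of 1593 bases. In iNSC replicates 1 and 3 the peak over the region reached into a gene and can be among the gene peaks counted. Tram2, a gene of protein translocation into the endoplasmic reticulum, had a region 3055 bases past its end (chr1:20996296-20998342) at 50.7, 29.1 and 47.8, beside 1 gene peak in each iNSC list and 0, 0 and 2 in SSC lists.

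Col16a1, a collagen gene, had a region 3281 bases past its end (chr4:130102558-130102727), at 54.1, 50.5 and 60.2 in iNSC lists, although the lncRNA gene Gm40258 was closer at 2728 bases. Col16a1 itself had 2, 1 and 1 peaks in the SSC lists, which lacked the region, and 0, 0 and 1 in the iNSC lists. Next to Pnp2, a purine nucleoside phosphorylase gene whose strand was not known, both cell types had a narrow region but not the same one. The iNSC region (chr14:50965023-50965100) was 78 bases wide in all 3 lists, at 72.4, 64.4 and 49.8. The neighbouring region was 65 bases wide and appeared in SSC replicates 1 and 3 alone, at 86.4 and 71.6. Near-identical copies of Pnp2 and its neighbour Pnp could share reads, which makes the placement of these peaks uncertain. The other iNSC-only regions were nearest to Gm2026, Mir101c, Gm32746, Gm31473, Gm8082, Naip6 and Pttg1ip2, at distances of 998 to 17515 bases.

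**Figure D3:**
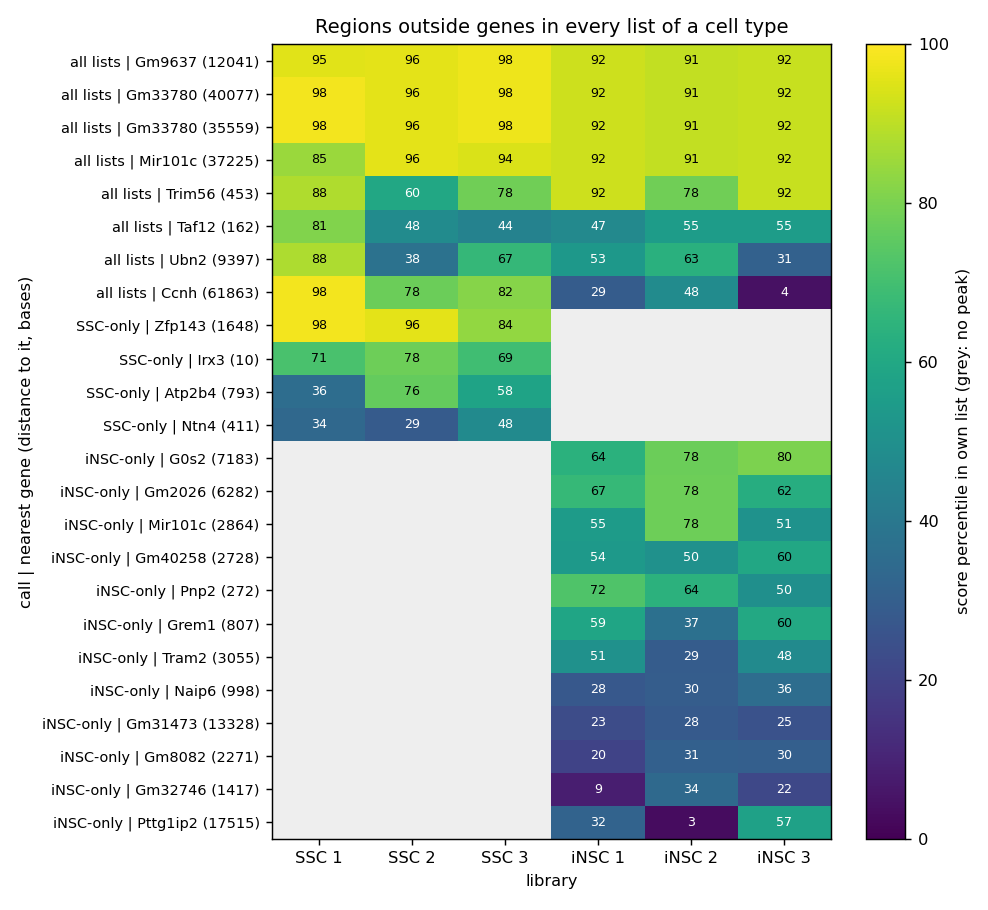
Score percentile in its own list (colour and printed number) of each region found in all lists, in SSC lists only or in iNSC lists only (rows, named by call, nearest gene and distance in bases) in the 6 libraries (columns), with grey for no peak. The top 3 rows lie between 90.9 and 98.1 in every list, whereas the Ccnh row falls from 98.1 in SSC replicate 1 to 4.45 in iNSC replicate 3.

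Most regions found in all lists were far from genes. The 77 regions farther than 5000 bases from any gene held 172 of the 435 peaks, and 6 of the 8 regions found in all lists were among them. Regions chr2:98662237-98662522 (+) and chr2:98666735-98667040 (-) were 286 and 306 bases wide with the same edges in all 6 lists. Both were at 98.1, 96.1 and 97.6 in SSC lists and 92.3, 90.9 and 91.8 in iNSC lists, which are the ranks of the capped score. Region chr14:19417133-19417366 (-), 12041 bases from the pseudogene Gm9637, was 234 bases wide with percentiles of 95.3, 96.1 and 97.6 and then 92.3, 90.9 and 91.8. Strong signal at such short fixed places is often seen over satellite and other repeats, whose reads place poorly. No repeat annotation was used, and the repeat content of these places was not tested.

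The region farthest from any gene, chr13:85126999-85127514 (-), lay 61863 bases from Ccnh, a cyclin gene of the CDK-activating kinase. Its percentiles were 98.1, 77.7 and 81.8 in SSC lists and 29.1, 48.2 and 4.45 in iNSC lists, so every SSC rank was above every iNSC rank. It was 516 bases wide in all SSC lists and in iNSC replicate 2, and 373 and 331 bases wide in iNSC replicates 1 and 3. The SSC-only region upstream of Zfp143 was also 516 bases wide and also at 98.1 in SSC replicate 1. Whether these 2 places share sequence was not tested. On chromosome 14, regions of 614 bases lay 2285 and 2271 bases past the predicted genes Gm3015 and Gm8082, found in 2 and 3 iNSC lists, and reads of near-identical copies may be placed at either.

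The start of the mapped sequence of chromosome 9 held a dense block on the plus strand, chr9:3000962-3035805. Its 34844 bases carried 24 regions and 65 member peaks, all nearest to Mir101c at 2864 to 37225 bases. The lists had 5, 15 and 8 of these peaks in SSCs and 13, 11 and 13 in iNSCs, or 4.42%, 23.4% and 7.27% against 31.7%, 20.8% and 24.1% of each list's peaks outside genes. Their median percentile was 53.9, 42.6 and 68.6 in SSC lists and 73.6, 77.8 and 73.1 in iNSC lists. Of the 33 member peaks at the capped score, 11 were in this block. In the block, 4 regions were exactly 483 bases wide, 1 of them (chr9:3000962-3001444) in all 6 lists at 84.8, 96.1 and 94.3 and then 92.3, 90.9 and 91.8. This end of chromosome 9 is known for satellite-rich sequence in the mouse assembly, and its part in these peaks was not tested.

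**Figure D4:**
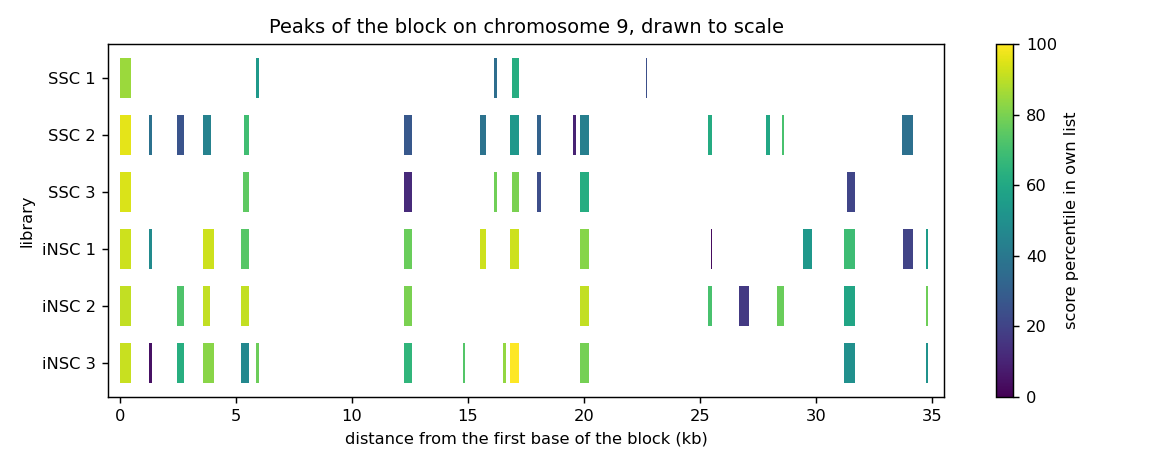
Peaks of the block on chromosome 9 in the 6 libraries (rows), drawn to scale by distance in kb from the first base of the block (x axis) and coloured by score percentile in their own list. SSC replicate 1 has 5 peaks and SSC replicate 2 has 15, and the first region is present in all 6 libraries.

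The share of peaks that lay outside genes overlapped between SSC and iNSC lists. The share was 0.409%, 0.324% and 0.444% in SSC lists (0.393% ± 0.0615, SD, n = 3) and 0.295%, 0.331% and 0.336% in iNSC lists (0.321% ± 0.0227, n = 3). The groups overlapped, and the difference of 0.0719 percentage points gave p = 0.3 in an exact two-sided permutation test. Where only protein-coding spans counted as genes, the shares were 1.24%, 1.07% and 1.30% against 0.884%, 0.944% and 0.897%, which do not overlap (exact permutation p = 0.1). The number of peaks separated the cell types, at 95.7 ± 27.5 against 49.3 ± 7.23 (SD, n = 3 each), with an exact permutation p = 0.1, the smallest that 3 against 3 allows. At equal list length the SSC lists had 36, 37 and 47 such peaks and the iNSC lists 41, 42 and 45. SSC replicate 1 had the same number, median width (287 bases) and median distance (2467 bases) there as in the better-scoring 50% of its list. SSC peaks outside genes ranked low, so list length and score rank cannot be told apart in this comparison. Adjusted over 9 tests, the share had p = 0.3 and the number p = 0.18 in these exact permutation tests.

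For width, rank and distance of peaks outside genes, no SSC value fell within the iNSC range, in a design whose test cannot go below 0.1. Median widths were 271, 251.5 and 255 bases in SSC lists and 389, 483 and 353.5 in iNSC lists (259 ± 10.4 against 409 ± 66.9, SD, n = 3 each). Peaks inside genes also differed in width, at 199 ± 5.97 and 399 ± 32.6 bases, so the gap was not limited to peaks outside genes. Median percentiles were 35.6, 36.8 and 33.6 in SSC lists and 53.3, 48.2 and 47.3 in iNSC lists. The median distance to a gene was 2091, 3594.5 and 1653.5 bases in SSC lists and 6282, 7183 and 6732.5 in iNSC lists. Each of these 3 measures had an exact permutation p = 0.1 (adjusted 0.18).

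The share of these peaks within 5000 bases past a same-strand gene end was 43.4%, 28.1% and 41.8% in SSC lists and 24.4%, 26.4% and 25.9% in iNSC lists (exact permutation p = 0.1, adjusted 0.18). SSC replicate 2, the shortest SSC list, was the one close to the iNSC values. The nearest gene lay on the opposite strand for 22.9%, 46.3% and 29.2% of SSC peaks and for 48.6%, 37.8% and 39.6% of iNSC peaks whose neighbour's strand was known, and these groups overlapped (exact permutation p = 0.3, adjusted 0.3).

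These values were computed again without the block on chromosome 9. Leaving it out, an alternative added after the data were seen, brought the median percentile to 35.3, 30.8 and 33.0 in SSC lists and 39.2, 30.1 and 31.7 in iNSC lists, which overlap. The median distance became 1855.5, 1748 and 1399.5 bases against 2848.5, 2977 and 2728 bases, a smaller gap that still separated the groups. The opposite-strand share became 18.7%, 25.6% and 22.2% against 18.2%, 17.6% and 17.1%, with the direction turned. The past-end share became 45.4%, 36.7% and 45.1% against 35.7%, 33.3% and 34.1%. Widths stayed apart, at 271.5, 255 and 252.5 bases against 555, 614 and 362 bases.

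Compared with peaks inside genes of the same list, the median rank of peaks outside genes was lower in every SSC list. The difference of median percentiles was -14.5, -13.3 and -16.5 in SSC lists and 3.27, -1.76 and -2.71 in iNSC lists. Over the 6 libraries the mean difference was -7.57 (exact sign-flip permutation p = 0.125, adjusted 0.188, lower in 5 of 6 libraries). The effect differed between the cell types by -14.3, at an exact permutation p = 0.1. Peaks inside genes make up nearly all of each list, so their median percentile is held at 49.99 to 50.08. This value therefore repeats the SSC minus iNSC gap in median percentile given above and is not a further result. Without the block the difference was -14.8, -19.2 and -17.0 in SSC lists and -10.8, -19.9 and -18.3 in iNSC lists. Its mean was then -16.7, lower in 6 of 6 libraries. The peaks of the block were chosen after their values were seen and ranked high in the iNSC lists, so taking them out lowers the median of the rest, and this value is a description without a test.

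Widths outside and inside genes did not differ by a shared direction. The difference of medians was 78.5, 47.5 and 54 bases in SSC lists and -44, 86 and -14.5 in iNSC lists, with a mean of 34.6 (exact sign-flip permutation p = 0.1875, adjusted 0.241). Entries under 50 bases numbered 24 of 435, the narrowest being 1 base wide.

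**Figure D5:**
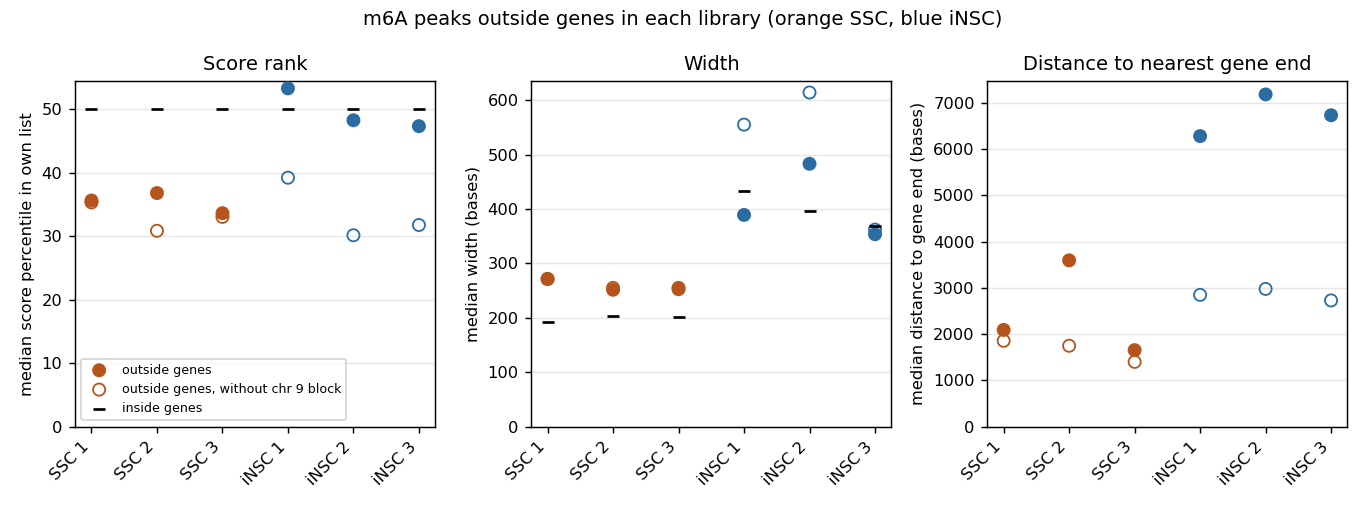
Median score percentile (left), median width in bases (middle) and median distance to the nearest gene in bases (right) of peaks outside genes in each library; filled circles are all peaks outside genes, open circles leave out the block on chromosome 9, and black dashes are peaks inside genes. The iNSC percentiles drop from between 47.3 and 53.3 to between 30.1 and 39.2 without the block.

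Recurrence between libraries of a cell type was lower in every list for peaks outside genes than for peaks inside genes. In SSC lists 12.4%, 18.75% and 12.7% of them overlapped a peak of both other SSC libraries, against 33.5%, 46.7% and 37.2% of peaks inside genes. In iNSC lists these shares were 73.2%, 56.6% and 57.4%, against 77.8%, 67.9% and 67.6%. Without the block on chromosome 9 the iNSC replicate 1 share was 4.37 points higher than inside genes, and the other 5 lists kept the lower share. The libraries of a cell type enter each other's values, so no test was made. Of the 81 regions with member peaks in at least 2 lists, 22 (27.2%) had the same left and right edge in every list that held them, against 49.8% of 25852 regions of the whole series.

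The Y chromosome held 5 of the 435 peaks, 1.15% against 0.142% of all peaks of the series, and the X chromosome 8, 1.84% against 3.03%. The Y chromosome had 0 in each SSC list and 0, 1 and 4 in iNSC lists, all 5 nearest to the lncRNA gene Gm33272 whose upstream sequence is printed above. The 4 Y regions ranked from 17.2 to 91.8 in iNSC replicate 3, and the 1 peak of iNSC replicate 2 was at 31.7. The Y share thus rests on the surroundings of 1 gene. Whether this sequence also occurs elsewhere, for example on the X chromosome, was not tested, so the placement of these peaks is uncertain. The X chromosome had 0, 1 and 6 in SSC lists and 0, 0 and 1 in iNSC lists, and 3 of the 6 in SSC replicate 3 lay within 3437 bases of Nlgn3, a synaptic adhesion gene. Among other genes with several regions, the predicted gene Gm29801 had 4 in SSC replicates 1 and 3 alone, and Smgc, a salivary mucin-like gene, had 3 at 45158 to 47813 bases. Erich1 had 3 regions within 123 to 1521 bases, each in a different SSC list, so none recurred.

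Of all protein-coding genes, 38.9% to 47.3% had a peak in an SSC list and 31.7% to 34.3% in an iNSC list, and marker counts are read against these shares. Of 10 germ cell markers, 7, 4 and 5 had a peak in SSC lists and 1, 1 and 2 in iNSC lists, while of 10 neural stem cell markers 4, 3 and 3 had a peak in SSC lists and 2, 2 and 2 in iNSC lists. Sox1, Olig2, Hes5, Fabp7 and Gfap had no peak in any list, and Pax6 had peaks in iNSC lists only. Of 8 fibroblast markers 5, 3 and 7 had a peak in SSC lists and 4, 3 and 4 in iNSC lists, and of 6 testis somatic markers 3, 4 and 2 against 0, 0 and 0. The part of feeder or somatic cells in peaks outside genes was not tested. The lists hold no read counts, so depth is unknown and no detection limit can be given. The labels do not say that replicates are separate cultures, so the p-values reflect spread among 6 libraries that could be technical.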

How the data were processed

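The 6 processed files are peak lists of single IP libraries, made by the authors, with chromosome, start, end, name, score and strand. The score is the authors' own per-peak value, deposited with no unit, from about 50 to a cap counted at 3100 or above, and was used only as a midrank percentile within its list. Tools named in the submitters' processing notes are cutadapt 1.9.3 and HISAT2 2.0.4, with mm9 as the build; the peak caller is not given in the sources used here. Peak edges match genes of GRCm38, so GRCm38.p6 RefSeq spans of 49997 genes were used and BED starts were made 1-based. Gene strand came from RefSeq sequence tables (28097 genes) or from peaks (2158 genes). The latter needed at least 2 peaks that overlapped that gene span alone, more than 90% of them on 1 strand. Both sources gave the same strand for 99.8% of 8359 genes.

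Libraries are the replicates. SSC and iNSC means were set against each other by exact permutation (two-sided), differences within a list with exact sign-flip tests, with Benjamini-Hochberg adjustment over 9 tests, in Python 3.11.15, numpy 2.4.6 and pandas 2.3.3. The code was tested on simulated peaks. Named regions are the 6 best-ranked per call by their lowest percentile, the 3 widest, the 3 farthest and the 3 with most entries. Other regions are named after their values were seen, namely those in promoter windows, other iNSC-only and all-list regions, and the genes with repeated regions. The members and lists were chosen with earlier results of these data known. The alternatives changed the gene spans, score, list length, width, chromosomes, merging, window and libraries used.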

Additional observations from a re-analysis of the deposited data

How the results depend on the processing

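Over all results and alternatives, 173 values kept their direction and call, 13 moved, 4 passed the threshold and 7 turned. Counts of regions labelled as kept could still differ, such as 18 iNSC-only regions with own-strand genes only against 12 in the main setting. The 173 also include the replicate-block values, which are the same by construction, and the much smaller percentile gap without the chromosome 9 block. For SSC against iNSC the smallest p is 0.1, so a threshold of 0.05 could not be passed there and says nothing about stability, and counts of regions have no test. The SSC minus iNSC median percentile, -14.3, was -0.637 without the chromosome 9 block, an alternative chosen after seeing the data. The SSC minus iNSC share was 0.296 percentage points with protein-coding spans only. It turned to -0.0122 percentage points with gene spans extended by 1000 bases, to -0.0565 when the lower-scoring 50% of peaks was dropped and to -0.0192 at equal list length, where the number of peaks also turned (-2.67). The opposite-strand share turned to 4.52 without the block. The width difference between peaks outside and inside genes was 144 bases with protein-coding spans only and 108 with own-strand genes only, now past the threshold (exact sign-flip p = 0.031 each). It turned to -166 in the better-scoring 50% and to -4.08 for peaks of at least 100 bases. The percentile difference passed the threshold in the better-scoring 50% (-5.71). Its value without the block (-16.7) is counted among the 4 that passed. There the removal of high-ranking peaks lowers the median, so that value is a description and not a test result. The shared share differed by -5.73 points with protein-coding spans only. The cause of these changes was not tested.

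SSC-only regions numbered 34 with protein-coding spans only, 1 with extended spans, 12 with own-strand genes only and 2 at equal list length. The iNSC-only regions numbered 17, 9, 18 and 13 there, so with protein-coding spans only the SSC-only regions were the more numerous. Regions in all lists numbered 33 with protein-coding spans only, 17 with own-strand genes only and 5 in the better-scoring 50%, where iNSC-only regions numbered 6. Leaving out each library in turn gave 4 to 16 SSC-only regions, 12 to 15 iNSC-only regions and 8 to 15 regions in all lists, the highest being without SSC replicate 1.

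With the replicate number as a block (replicate block), differences are the same by construction, for example 46.3 for the number of peaks (exact sign-flip p = 0.25, the smallest that 3 pairs allow). The deviations of same-numbered libraries had correlations of 0.0123, -0.00158 and 0.0320, against -0.0492 to 0.0390 for libraries with different numbers. These values cannot show whether the numbers mark matched cultures, which the labels do not say. The GGAC comparison of peaks outside with peaks inside genes was not run, because it needs a genome. With own-strand genes only, the opposite-strand share has no value. List length limits all counts, and depth is unknown.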
